A study of Arabidopsis thaliana with 30 samples.

Results

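The 200 rows of the count table described here are those whose level moved least over the 24 h after cutting in wild-type Arabidopsis hypocotyl explants. They were chosen from the wild-type libraries alone, among the 4127 rows with a wild-type mean of 50 to 1000 CPM (counts scaled to a common library total) of 36635 rows in all. For each row, the level at a time was log2(1 + mean CPM of 3 libraries), and the 200 rows with the smallest difference between their highest and lowest level over 5 times were kept. Flatness in the wild type is therefore how the rows were picked and is no finding. The libraries of the hsfa1abd-2 mutant took no part in the choice, and most of what follows asks whether the same rows stayed level there.

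Explants were cut from 7-day-old, dark-grown Col-0 wild-type and hsfa1abd-2 seedlings, with about 50 hypocotyl explants per replicate. Each genotype was collected at 0, 0.5, 1, 3 and 24 h, with 3 biological replicates per group, 10 groups and 30 libraries. Each of these libraries, those at 0 h included, carries the label wounded, and uncut tissue was not analysed here. Time since cutting can therefore not be told apart from time of day or, at 24 h, from the age of the tissue. The mutant is in the Col-0 ecotype.

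HSFA1A, HSFA1B and HSFA1D, after which the mutant is named, are class A heat shock factors, which switch on chaperone genes when proteins misfold. Cutting a plant organ sets off a fast wave of calcium, jasmonate and reactive oxygen signalling, followed by slower programmes of repair and regrowth. Transcripts that hold a constant share of the mRNA through such a response are of practical use, because they serve as reference genes for quantitative PCR and as a basis for scaling libraries. In Arabidopsis, rows of this kind are classically sought among genes of basic cell machinery, such as protein phosphatase subunits, ubiquitin-conjugating enzymes and trafficking factors. Which genes the 200 rows stand for could not be read, since the rows of the deposited table carry no identifier and no name was taken from their order. Rows are given by their number, counted from the first data row. The targeted HSFA1 genes, tissue markers and known reference genes could not be looked up for the same reason.

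The steady rows were of moderate abundance and well covered. Their wild-type means ran from 50.2 to 493 CPM with a median of 85.1 CPM, and their mutant means from 29.2 to 660 CPM with a median of 84.2 CPM. All 200 passed the filter on low counts. With 578179 counts, wild-type 0.5 h replicate 1 had 16.1% of the median depth, and the other 29 libraries held 3164714 to 4296509. Outside that shallow library a steady row had 76 to 3288 counts per library, with a median of 302. In the shallow library the lowest count was 19 and the median 48.5, so its values for these rows carry more counting error. Choosing the rows again without it returned 180 of the 200 (90%).

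At the threshold the choice was a matter of very small differences. The flattest row in the wild type, row 3410, had a wild-type range of 0.028 on the log2 scale and row 9148, the next, 0.059. The last rows inside were 13357 and 24527, both with 0.329, and the first rows outside were 17980 and 17768, also with 0.329. In linear terms a range of 0.329 is a 1.26-fold difference between the highest and the lowest time. The median range of the 200 rows in the wild type was 0.254 (1.19-fold). The steady rows took up 4.85% of the level band, and lower levels held more of them than higher ones: 134 of the 2256 rows at 50 to 100 CPM (5.94%), 43 of 1170 at 100 to 200 CPM (3.68%), 19 of 487 at 200 to 400 CPM (3.90%) and 4 of 214 above that (1.87%).

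In the mutant the rows remained close to level. Their median range over the 5 times was 0.323 on the log2 scale, against 1.01 (2.02-fold) for the other 3927 rows of the level band and 0.962 for all 18526 tested rows. A range under 0.5 was found in 170 of the 200 rows (85.0%) and in 13.5% of the other rows of the band. A range under 1, that is less than 2-fold between the highest and the lowest time, was found in 197 rows (98.5%), against 49.4% of the others. When rows of the band were ranked by their mutant range, 139 of the 200 fell in the flattest 10% and 5 in the less steady part above the median. The range was larger in the mutant than in the wild type for 153 rows and smaller for 47. A wider range outside the libraries that chose the rows follows in part from choosing the smallest values, and how much of the difference it makes was not tested. Replicate pairs differed by up to 16.1 in the mutant and 8.46 in the wild type (chi-square per degree of freedom against counting error). What this adds to the range was not tested either.

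**Figure D1:**
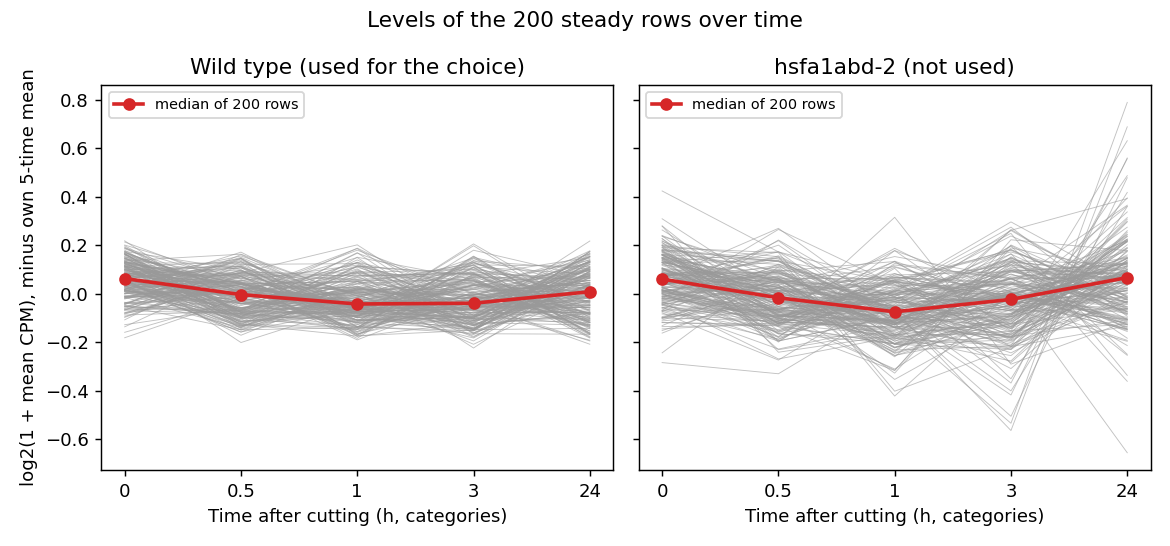
Mean level of each of the 200 steady rows at 5 times, as log2(1 + mean CPM of 3 libraries) minus the row's own mean over the times, in the wild type and in hsfa1abd-2. Grey lines are rows and red points are the median over rows; the wild-type lines are narrow by choice (median range 0.254), while the mutant lines are wider (median 0.323) and fan out most at 24 h.

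**Figure D2:**
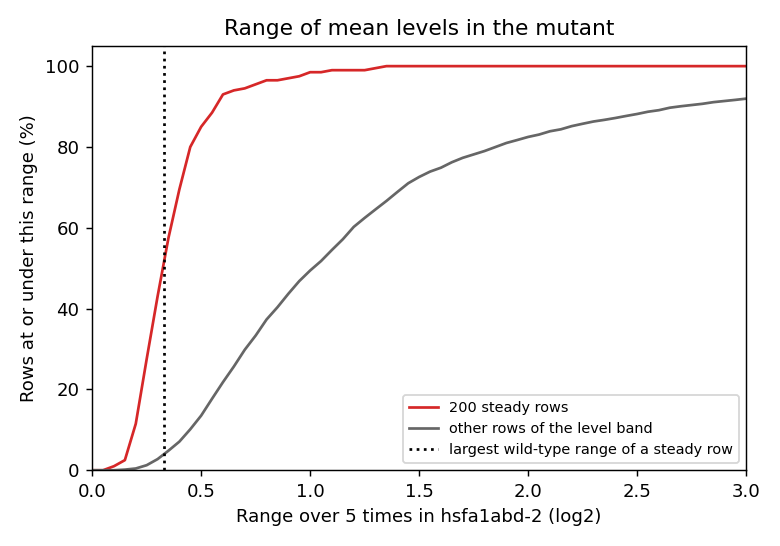
Cumulative share of rows, in percent, at or under a given range over 5 times in hsfa1abd-2 (log2). At the dotted line, the largest wild-type range of a steady row (0.329), 53.0% of the 200 steady rows and 3.87% of the other 3927 rows of the level band had been reached.

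The flatter a row was in the wild type, the flatter it tended to be in the mutant, with no step at the threshold. The median mutant range was 0.263 for wild-type ranks 1 to 50, 0.295 for ranks 51 to 100, 0.374 for ranks 101 to 150 and 0.347 for ranks 151 to 200. It went on to 0.415 for the rows past rank 200 up to 400, 0.511 for ranks 401 to 800, 0.638 for ranks 801 to 1600 and 1.37 for the rest. The share of rows that spanned at least 2-fold in the mutant was 0 of 50 in each of the first groups, 2 of 50 and 1 of 50 in the next, 2.5% and 4% in the following groups up to rank 800, 7.13% at ranks 801 to 1600 and 75.5% beyond. These are descriptions across rows, which share libraries and are not independent replicates.

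**Figure D3:**
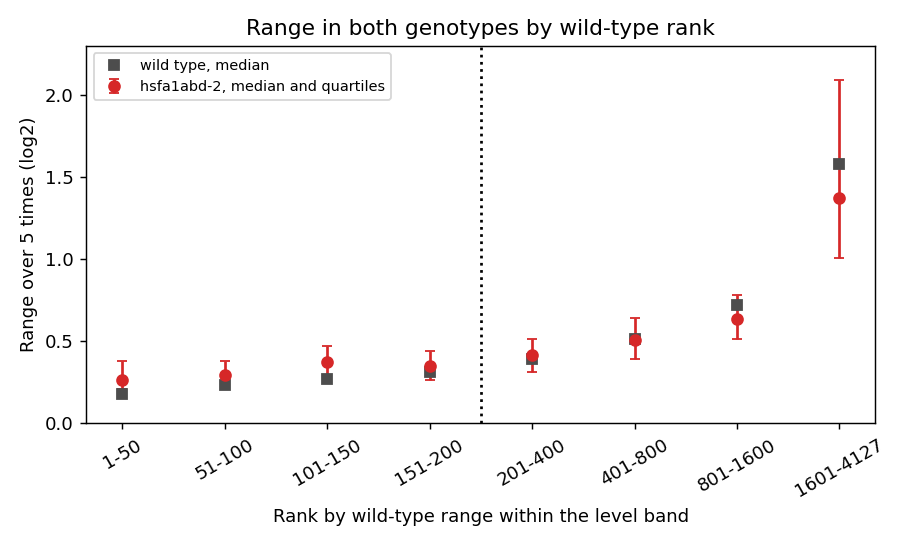
Median range over 5 times (log2) in hsfa1abd-2, with quartiles as bars, and in the wild type, for rows of the level band grouped by wild-type rank. The dotted line ends the 200 chosen rows; mutant medians go from 0.263 at ranks 1 to 50 to 1.37 at ranks 1601 to 4127.

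Applying the same rule to the mutant libraries gave another list of 200 rows, of which 88 were shared (44.0% of each list). Those 88 rows had a median mutant range of 0.225 and a median coefficient of variation over the 15 mutant libraries of 9.07%. The 112 rows chosen in the wild type only had medians of 0.419 and 13.7%. The mutant libraries themselves chose the 88, so their smaller spread there follows from that choice and is no finding. Of the 200, 191 lay within 50 to 1000 CPM in the mutant and so could be chosen there at all.

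The spread between replicates was also smaller for the steady rows. The pooled SD of log2(1 + CPM) within mutant groups had a median of 0.125, against 0.168 for the other rows of the band. The range in the mutant was 2.55 times this SD for the median steady row and 6.15 times for the median other row. The coefficient of variation over the 15 mutant libraries takes in change with time as well as spread between replicates, so it does not measure replicates alone. It was under 10% in 61 steady rows (30.5%) and in 1.53% of the others. It was under 20% in 184 steady rows (92.0%) and in 26.3% of the others. Among mutant groups the median SD of the steady rows was highest at 3 h (0.129) and 0.5 h (0.121) and lowest at 24 h (0.0753).

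Row 4149 had the smallest range in the mutant, 0.092 on the log2 scale, and a wild-type range of 0.136. In the mutant it stood at 184, 169 and 179 CPM at 0 h, at 168, 176 and 174 CPM at 0.5 h and at 172, 184 and 175 CPM at 1 h. At 3 h it stood at 176, 187 and 190 CPM and at 24 h at 175, 181 and 163 CPM. The libraries of each later time overlapped those of 0 h, while all 3 at 3 h lay just above all 3 at 0.5 h, and the coefficient of variation over the 15 libraries was 4.21%. The wild-type libraries gave 166 to 190 CPM outside the shallow library, which gave 204 CPM. Over those 29 libraries the highest value was 1.17 times the lowest, against a median ratio of 1.57 for the 200 rows and 3.12 for the other rows of the band. Row 6619, with the second smallest mutant range (0.096), varied more between replicates, from 52.1 to 80.0 CPM over the 15 mutant libraries (coefficient of variation 11.5%).

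Small changes with time were nevertheless called in many of these rows in the mutant. A joint test of the 4 later times against 0 h (edgeR's quasi-likelihood test on TMM-scaled counts, Benjamini-Hochberg adjusted over all tested rows, threshold 0.05) called 92 of the 200. The same test called 74.1% of all tested rows and 88.3% of the level band. At an unadjusted p under 0.05 it passed 101 of the 200, against 76.3% of all tested rows and 89.8% of the band. TMM, the trimmed mean of M-values, sets a scaling factor so that most rows do not change on average. Against 0 h, 11 rows were called after 0.5 h, 38 after 1 h, 48 after 3 h and 29 after 24 h. Over all tested rows 22.9%, 35%, 42.7% and 47.9% were called at these times, and in the level band 31.9%, 44.8%, 55.4% and 63.3%. These 4 contrasts share the mutant 0 h libraries. The count at 0.5 h was 5 in a fit of the mutant libraries alone, 7 with no filter, and 6, 6 and 7 without mutant 0.5 h replicates 1 or 2 or 0 h replicate 3. Dropping mutant 0 h replicate 2 or 3 gave 29 or 31 calls for 3 h, and dropping mutant 0 h replicate 1 or 24 h replicate 2 gave 17 or 15 for 24 h.

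The called changes were small. The median size of a called log2 change was 0.33, 0.36, 0.34 and 0.37 in time order. No steady row was called with a change of at least 2-fold at 0.5, 1 or 3 h, where 12.1%, 17.3% and 21.3% of all tested rows were. At 24 h 1 was, against 22.2% of all tested rows. At an unadjusted p under 0.05, with no fold minimum, 25, 55, 72 and 41 of the 200 rows passed at the 4 times, against 32.6%, 43%, 49.4% and 53.5% of all tested rows.

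The direction of these small changes depended on the scaling. Under TMM, most calls were rises from 0 h: 10 of 11 after 0.5 h, 33 of 38 after 1 h, 43 of 48 after 3 h and 22 of 29 after 24 h. Over all tested rows 14.6% were called higher and 8.3% lower after 0.5 h, 20% and 15.1% after 1 h, and 26.6% and 21.3% after 24 h. After 3 h 4461 of all tested rows were called higher and 3441 lower. Of the 4127 rows of the band, 1004, 1267, 1469 and 1480 were called higher at the 4 times and 311, 580, 819 and 1133 lower. Under scaling by the total count, which the choice of the rows had used, calls were mainly falls: 12 of 13 after 0.5 h, all 48 after 1 h and 37 of 44 after 3 h, while 24 h split evenly, with 13 of 26 lower. With that scaling 26.8%, 45.5%, 47.8% and 47% of all tested rows were called. Falls were also the more frequent calls over all tested rows at the first 3 times, with 12.3% higher and 14.5% lower after 0.5 h, 15.1% and 30.4% after 1 h, and 18.9% and 28.9% after 3 h. In time order, the mean TMM factors of the mutant groups were 1.11, 1.01, 0.941, 0.970 and 1.07, and those of the wild type 1.09, 0.985, 0.933, 0.924 and 0.994. Going from TMM to total counts therefore moved the median log2 change of all tested rows by -0.13, -0.23, -0.19 and -0.05 at the 4 times. Relative to the median of all tested rows, the median steady row changed by 0.07, 0.10, 0.10 and -0.03 under TMM and by 0.07, 0.10, 0.10 and -0.03 under total counts. Called under both scalings with the same sign were 2 rows at 0.5 h, 5 at 1 h (all lower), 12 at 3 h (7 higher and 5 lower) and 20 at 24 h (13 higher and 7 lower), against 20.6%, 30.1%, 37.5% and 45.3% of all tested rows. The joint test called 91 rows under total counts, against 79% of all tested rows, and 53 of them were among the 92 called under TMM. That overlap was not counted over all tested rows.

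**Figure D4:**
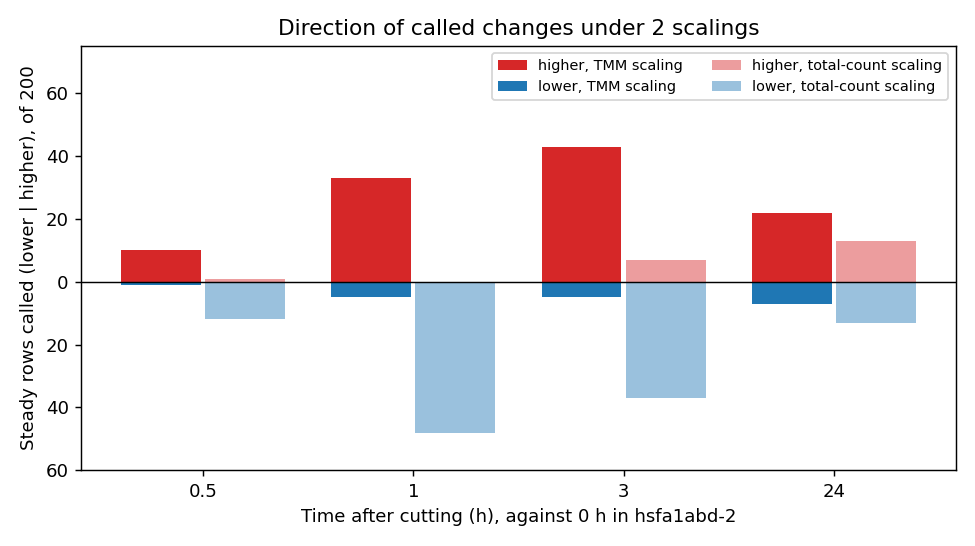
Number of the 200 steady rows called higher (above the line) or lower (below the line) than at 0 h in hsfa1abd-2 at 4 times, under TMM (solid) and under total-count scaling (pale). At 1 h 33 rows were higher and 5 lower under TMM, and 0 higher and 48 lower under total counts.

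Row 4149 shows how the scaling enters. In CPM its libraries at each later time overlapped those at 0 h, and under total counts edgeR's joint test gave an adjusted p of 0.848. Under TMM edgeR called it (adjusted p = 0.0194), with log2 changes of 0.23 (approximate SE 0.085) at 1 h and 0.24 (SE 0.085) at 3 h. All levels here are shares of the mRNA in a library, so a row that is level in CPM holds a level share. In whole hypocotyl tissue, fewer cells of a type and less RNA per cell cannot be told apart, and the amount of RNA per explant was not analysed here.

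The share of all counts that the 200 rows held together had group means of 2.19% to 2.45%. No other set of rows was summed beside it. In the mutant it began at 2.38% ± 0.098 (SD, n = 3), went to 2.25% ± 0.073 after 0.5 h, 2.19% ± 0.071 after 1 h and 2.2% ± 0.032 after 3 h, and ended at 2.45% ± 0.037. In the wild type, whose libraries chose the rows, it was 2.34% ± 0.058, 2.23% ± 0.082, 2.22% ± 0.0096, 2.19% ± 0.035 and 2.27% ± 0.069 (SD, n = 3 each). Shares were lowest at 1 and 3 h in both genotypes. At 24 h the mutant libraries (2.42% to 2.49%) did not overlap the wild-type ones (2.19% to 2.31%). They also lay above all mutant libraries at 0.5, 1 and 3 h, of which the highest held 2.32%.

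A change that is not called is not shown to be absent, so steadiness was also tested directly. An equivalence test (limma-voom, TMM scaling, Benjamini-Hochberg adjusted) asked whether a row stayed within a set fold of its 0 h level at all 4 later times in the mutant. Within 2-fold, 195 of the 200 rows passed, against 43.1% of the level band and 29.4% of all tested rows. This count was 189 to 195 when any mutant library was left out and 192 under total counts. Within 1.5-fold, 61 rows passed, against 4.75% of the band and 1.19% of all tested rows. That number fell when single libraries were left out. Dropping mutant 0 h replicate 1, 2 or 3 left 9, 10 or 10 rows. Dropping 0.5 h replicate 3 left 35, and dropping 24 h replicate 1, 2 or 3 left 38, 31 or 34. The adjusted count was 26 under total counts (0.216% of all tested rows) and 0 in a fit of the mutant libraries alone. At an unadjusted p under 0.05 by this test, 161 of the 200 passed in the main fit. Without mutant 0 h replicate 1, 2 or 3 the unadjusted count was 150, 155 or 149, and with the mutant libraries alone 158. These unadjusted counts were not made over all tested rows. Within the narrower margin tried, no row passed by this test, and 23 of the 200 had an unadjusted p under 0.05. The 95% intervals of the log2 changes had median half-widths of 0.22 to 0.23, which is the precision that 3 libraries per group gave for these rows. At 0.5, 1, 3 and 24 h, 190, 172, 172 and 179 rows had an interval wholly inside 1.5-fold, against 33.9%, 26.9%, 23.9% and 22.8% of all tested rows and 58.9%, 50.0%, 42.1% and 34.6% of the band.

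Level and precision went together. Among the 134 steady rows at 50 to 100 CPM, 28 passed the 1.5-fold equivalence test (20.9%). At 100 to 200 CPM 21 of 43 passed (48.8%), at 200 to 400 CPM 10 of 19 (52.6%) and above that 2 of 4. The median mutant range differed little between these levels, at 0.326, 0.293, 0.352 and 0.374. The median SE of the change at 1 h went from 0.116 at the lowest of them to 0.0890 at the highest. Changed and steady were not exclusive: 10 rows were called by both tests, 51 were called steady only, 82 changed only and 57 neither. Steady within 1.5-fold under both scalings were 12 rows, with wild-type means of 82.2 to 304 CPM, mutant ranges of 0.092 to 0.383 and coefficients of variation over the mutant libraries of 4.21% to 11.6%. Of these, 7 were called changed under neither scaling. The list of 12 rests on the 1.5-fold test, whose count fell when single libraries were left out. Counts by level, and counts that combine the tests or the scalings, were made here for the 200 rows only, so they have no background beside them.

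In CPM the median steady row dipped slightly after cutting in the mutant and was back near its start at 24 h; under TMM the medians were above 0 h instead. On the scale of log2(1 + mean CPM), the median row was 0.09 below its 0 h level at 0.5 h, 0.14 below at 1 h, 0.09 below at 3 h and 0.01 below at 24 h. The other rows of the band were lower by 0.05, 0.14 and 0.11 at the first 3 times and higher by 0.04 at 24 h. The lowest of the 5 levels fell at 1 h in 67 of the 200 rows (33.5%), against 21.1% of the other rows. The highest fell at 24 h in 69 rows (34.5%), against 32.3%, and at 0 h in 52 (26.0%), against 23.9%. In the wild type the highest level was at 0 h in 70 rows and at 24 h in 48, which describes the values that chose them.

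A few steady rows did move in the mutant. The 3 with a range of at least 2-fold were rows 2988 (2.50-fold), 15865 (2.38-fold) and 32117 (2.11-fold). Row 2988 stood at 344, 392 and 361 CPM in the mutant at 0 h and at 617, 670 and 702 CPM at 24 h. The groups did not overlap, and the log2 rise was 0.90 (SE 0.31, adjusted p = 0.022, edgeR's quasi-likelihood test). The edgeR call was lost with no filter (adjusted p = 0.051) and without mutant 0 h replicate 1 or 3 or 24 h replicate 3 (adjusted p = 0.091, 0.062 and 0.055). In between its libraries were spread widely, at 429, 178 and 490 CPM at 0.5 h and 241, 362 and 190 CPM at 3 h.

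Row 15865 had the same outline. It stood at 327, 382 and 344 CPM at 0 h, at 354, 121 and 397 CPM at 0.5 h, at 216, 298 and 147 CPM at 3 h and at 489, 519 and 570 CPM at 24 h. In both rows the mutant 0.5 h replicate 2 library was the lowest of its group and the 3 h replicate 2 library the highest of its group. In the wild type at 0.5 h, shallow library first, row 2988 stood at 204, 184 and 445 CPM and row 15865 at 159, 161 and 328 CPM. The wild-type 3 h replicate 2 library was also the highest of its group in both rows (274 and 236 CPM). Their wild-type group means were level, but the libraries at 0.5 h were not. The 24 h change of row 15865 was 0.63 (SE 0.32) and did not pass (adjusted p = 0.11 by edgeR). Whether these rows are copies or neighbours that share reads could not be looked up.

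Row 26291 had the next largest called rise, this time with tight replicates. It went from 71.6, 61.7 and 70.9 CPM at 0 h to 77.1, 81.5 and 83.3 CPM at 1 h, 106, 96.4 and 96.9 CPM at 3 h and 110.4, 102 and 115 CPM at 24 h. No library at 1, 3 or 24 h overlapped those at 0 h, and the log2 change at 3 h was 0.74 (SE 0.11, adjusted p = 2.0e-06 by edgeR). Under total counts it was 0.55 (adjusted p = 0.00014 by edgeR). In the wild type it went from 76.0, 83.8 and 91.4 CPM at 0 h to 93.3, 87.5 and 109.5 CPM at 3 h, and those libraries overlapped. The wild-type values chose the row for flatness, so that overlap is no finding.

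The leading falls were at 24 h. Row 32117 stood at 87.8, 107 and 95.3 CPM at 0 h in the mutant and at 41.7, 50.1 and 43.8 CPM at 24 h. The fall was -1.05 in log2 (SE 0.16, adjusted p = 2.0e-06 by edgeR), without overlap. In the wild type it stood at 66.4, 56.1 and 88.7 CPM at 0 h and at 65.3, 68.9 and 63.8 CPM at 24 h. Its flatness there is how the row was picked. Row 27838 fell by 0.56 (SE 0.17, adjusted p = 0.0087 by edgeR), from 66.8, 56.6 and 63.7 CPM to 44.8, 38.6 and 39.2 CPM. For both rows the mutant libraries at 24 h lay under every mutant library at 0 h.

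**Figure D5:**
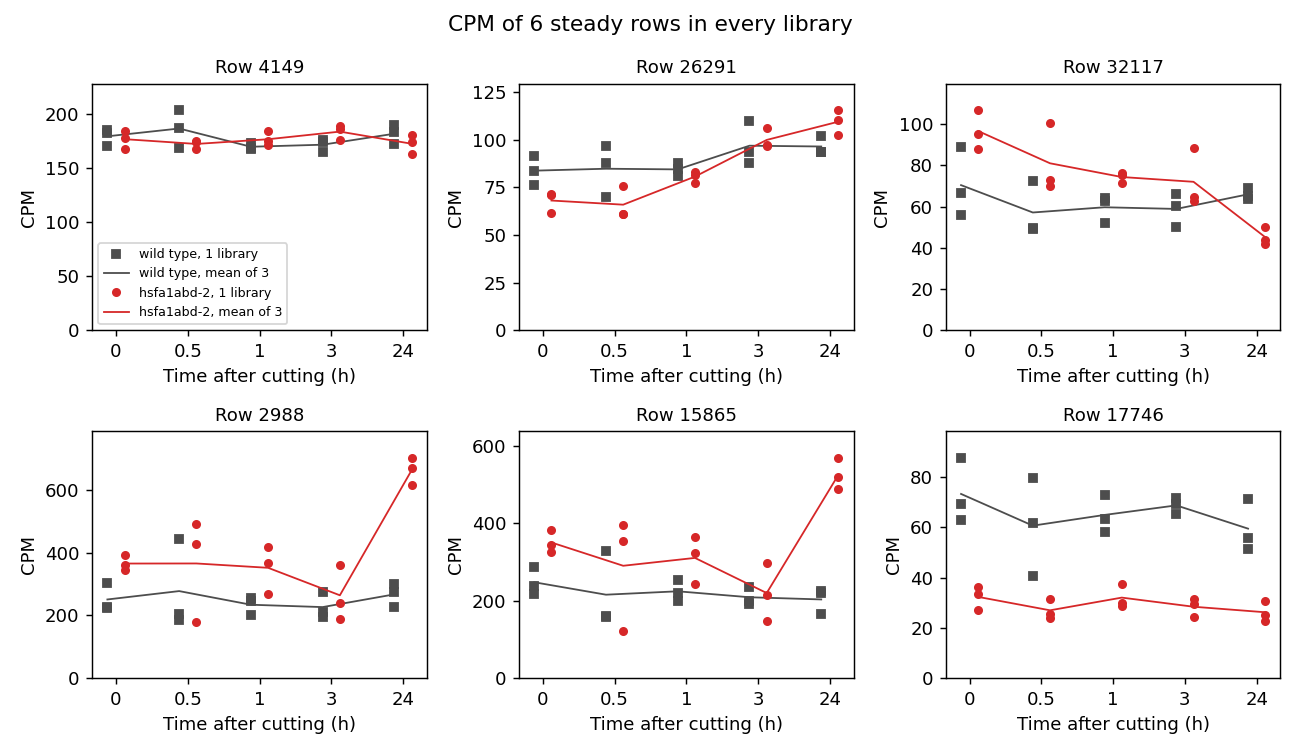
CPM of 6 steady rows in every library against time after cutting (h, as categories), squares for the wild type and circles for hsfa1abd-2, with lines through the means of 3. Row 4149 lay at 163 to 190 CPM in the mutant throughout, row 2988 reached 617 to 702 CPM in the mutant at 24 h, and row 17746 was lower in the mutant at all times.

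Before 24 h few rows were called different between genotypes, among the steady rows and among all tested rows alike. Genotype differences were called in 2, 5, 8 and 2 of the 200 rows at 0, 0.5, 1 and 3 h by edgeR's quasi-likelihood test, against 1.87%, 3.67%, 6.03% and 2% of all tested rows and 4.56%, 7.37%, 10.3% and 3.3% of the band. Both calls at 0 h were lower in the mutant, where 0.421% of all tested rows were higher and 1.45% lower, and 1 of them was at least 2-fold, against 0.459% of all tested rows and 0.509% of the band. Total counts also gave 2 calls at 0 h, against 1.28% of all tested rows and 3.05% of the band. At an unadjusted p under 0.05, 27, 32, 36 and 22 rows passed, against 14.6%, 17.9%, 22.7% and 13.4% of all tested rows. The wild-type libraries of these contrasts also chose the rows, though for flatness over time and not for their level against the mutant. The small counts move with single libraries. Leaving out wild-type replicate 2 or 3 gave 1 or 8 calls for 0.5 h, and leaving out mutant replicate 1, 2 or 3 gave 3, 16 or 1. For 1 h the wild-type replicates 1, 2 and 3, each left out, gave 2, 4 and 4 calls, and mutant replicate 2 or 3 gave 1. A single call remained for 0 h when wild-type replicate 3 or mutant replicate 2 was dropped, and for 3 h when wild-type replicate 2 or mutant replicate 1 was.

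At 24 h 41 of the 200 rows differed between genotypes (20.5%), close to the 20.9% of all tested rows and below the 32.1% of the level band. Differences of at least 2-fold were found in 4 rows, against 7.57% of all tested rows and 6.61% of the band. The count was 26 or 27 without mutant replicate 2 or 3 or wild-type replicate 2. Under TMM 15 of these rows stood higher and 26 lower in the mutant, against 10.6% and 10.3% of all tested rows. In the level band 436 rows stood higher and 890 lower. Under total counts 19 of 27 stood higher and 8 lower, where 18.7% of all tested rows were called. Of all tested rows, 2359 were then called higher and 1103 lower, and in the band 537 and 513. Called under both scalings with the same sign were 23 rows, 15 higher and 8 lower, against 16.5% of all tested rows and 23% of the band. Averaged over the 5 times, the median size of the genotype difference was 0.077 on the log2 scale for the steady rows and 0.125 for the other rows of the band.

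The largest called increases at 24 h were rows 15865 and 2988. Row 15865 stood at 225, 165 and 221 CPM in the wild type at 24 h, against 489 to 570 CPM in the mutant, a log2 difference of 1.26 (SE 0.32, adjusted p = 0.0077 by edgeR). Row 2988 stood at 276, 226 and 300 CPM against 617 to 702 CPM, a difference of 1.2 (SE 0.32, adjusted p = 0.0093 by edgeR). A further row, 23490, was higher by 1.08 (adjusted p = 0.0099 by edgeR) and is named because it completes the 4 rows with 2-fold differences, a choice made after its values were seen. For rows 15865 and 2988 the mutant and wild-type libraries did not overlap at 24 h.

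Row 17746 stood at different heights in the genotypes. In the wild type it stood at 63.0, 87.6 and 69.1 CPM at 0 h and in the mutant at 36.4, 33.3 and 27.3 CPM. At 24 h the wild type stood at 51.4, 55.8 and 71.2 CPM and the mutant at 22.7, 25.2 and 30.8 CPM. Over all libraries the wild type ranged from 40.6 to 87.6 CPM and the mutant from 22.7 to 37.5 CPM, with no overlap. The log2 differences at 0, 0.5, 1, 3 and 24 h were -1.21, -1.09, -1.03, -1.35 and -1.29 (SE 0.17 to 0.19), with adjusted p-values of 0.00010, 0.00051, 0.00039, 3.3e-06 and 7.85e-06 by edgeR. Its range over time was 0.297 for the wild type and 0.292 for the mutant on the log2 scale. In the mutant it was not called changed by edgeR's joint test (adjusted p = 0.18). Nor was it called steady within 1.5-fold by the limma-voom test (adjusted p = 0.51).

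Of the 200 rows, 155 were called different between genotypes at no time, 39 at 1 time, 3 at 2 times, 1 at 3 times and 2 at all 5 times. Besides row 17746, the other was row 7898, named after its values were seen, with log2 differences of -0.40 to -0.52. The tally of times per row was not made over all tested rows, so it has no background beside it. Row 12037, the second named decrease at 24 h, stood at 55.3, 48.4 and 61.6 CPM in the wild type and at 32.7, 35.4 and 33.3 CPM in the mutant. The log2 difference was -0.81 (SE 0.17, adjusted p = 0.00079 by edgeR), without overlap. In the wild type its 5 group means stayed between 55.1 and 62.2 CPM, and in the mutant they lay between 33.8 and 51.2 CPM. The narrow wild-type span follows from the choice of the rows.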

How the data were processed

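RNA was sequenced in 30 libraries of dark-grown hypocotyl explants. Per the labels' protocols, the kit was a stranded one for mRNA. The submitters' processing notes name fastp, STAR and TAIR10, without versions. Not given in the sources used here is how reads were counted, and against which gene models. As deposited, the authors' file holds raw counts per row without row identifiers, in which paralogs and overlapping or antisense genes may share reads.

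The rows and tests were chosen with earlier results of these data known. CPM is the count divided by the column sum, on the usual scale. Rows were named by rule: the 2 flattest wild-type rows, the 2 on each side of the threshold, the 2 smallest mutant ranges, and up to 2 called rises, falls, increases and decreases by size. No reference annotation was used.

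Counts were fitted with edgeR 4.0.16 in R 4.3.3 (filterByExpr, minimum count 10, minimum total 15, TMM, robust quasi-likelihood, 10 groups). This left 18526 rows with 99.8% of all counts, and 10278 rows had no count. P-values were adjusted by Benjamini-Hochberg over all tested rows. SEs are the log2 change over the square root of F, and so approximate. Equivalence used limma 3.58.1 (voom, one-sided moderated tests against each margin, the largest p over 4 times). DESeq2 1.42.0 was an alternative. Tests were checked on simulated data. All replicate pairs differed beyond counting error (chi-square 1.75 to 16.1 per degree of freedom). Wild-type pairs ran from 2.14 to 8.46 and mutant pairs from 1.75 to 16.1. At 24 h the mutant pairs were at 1.75 to 2.43. The difference in response between genotypes was not tested, because the wild-type change chose the rows.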

Additional observations from a re-analysis of the deposited data

How the results depend on the processing

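The median mutant range stayed at 0.308 to 0.340 when any mutant library was left out, and was 0.321 on TMM-scaled CPM and 0.401 for rows chosen on TMM-scaled CPM, a list that shares 94 of 200 rows (47.0%) with the one described. The joint count of 92 was 77 to 110 without single libraries and 72 for rows chosen on TMM-scaled CPM. It was 97 with DESeq2, 89 with the replicate block and 71 in a fit of the mutant libraries alone.

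Counts at single times in the mutant ran, without single libraries, from 6 to 9 at 0.5 h, 26 to 29 at 1 h, 29 to 41 at 3 h and 15 to 22 at 24 h. With no filter they were 7 at 0.5 h and 25 at 1 h, and in a fit of the mutant libraries alone 5 at 0.5 h and 19 at 24 h. The 1.5-fold equivalence count ran from 9 to 53, and was 26 under total counts, 0 in the fit of the mutant libraries alone, 195 with a 2-fold and 0 with the narrower margin (limma-voom). The 2-fold count, added after seeing the data, ran from 189 to 195.

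Genotype counts ran from 1 to 2 at 0 h, 1 to 16 at 0.5 h, 1 to 8 at 1 h, 1 to 2 at 3 h and 26 to 35 at 24 h without single libraries. Fitting only the 6 libraries compared called 12 rows at 0 h, 18 at 1 h and 1 at 3 h, and 0 at 0.5 h, where edgeR had 9 at an unadjusted p under 0.05. DESeq2, fitted to all 10 groups, called 5 at 0 h and 7 at 0.5 h. Rows chosen without the shallow library gave 1 at 0 h and 1 at 3 h. Rows chosen on TMM-scaled CPM gave 1, 2, 3 and 0 at 0, 0.5, 1 and 3 h, with 17 at 3 h at an unadjusted p under 0.05 by edgeR. Total counts gave 3 at 0.5 h and 27 at 24 h, and no filter gave 1 at 0.5 h. The causes of these shifts were not tested, and some of these fits also held fewer libraries. The called changes chosen by size (rows 2988, 26291, 32117 and 27838 over time, and 15865, 2988, 17746 and 12037 between genotypes, each at 1 time) were rerun under the alternatives. None changed sign, and of these only the 24 h rise of row 2988 lost its call. The joint call of row 4149 was lost under total counts.

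Of 27 same-numbered library pairs, 5 correlated above 0.1 in their deviations from group means (-0.18 to 0.35), and 14 correlated best with their own number. The numbers were not taken as pairs. Between genotypes, replicates 2 and 3 correlated at 0.30 and 0.35 at 0.5 h and at 0.21 and 0.18 at 3 h. Their best correlations with another number were -0.12 and 0.11, and 0.024 and -0.064. Replicate 1 correlated at 0.00041 and 0.044 with its own number. Whether replicates were paired across genotypes at these times was not tested. A block with 1 effect per number over all groups cannot take that up. The replicate block gave 10, 38, 43 and 28 calls at the 4 mutant times, 2, 5, 8, 2 and 39 between genotypes, and 55 in the 1.5-fold test. It ended or moved none of these counts by over 1.5 times.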
